A study of Mus musculus with 30 samples.

Results

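Spironolactone, given on top of hydralazine, was examined in aortas of male mice that model the vascular form of Ehlers-Danlos syndrome (VEDS). The members were 6 of the 30 bulk RNA-seq libraries of the series, comprising the 3 aortas of the hydralazine and spironolactone group (HS) and 3 of the 6 aortas on hydralazine alone. The 3 hydralazine libraries were chosen by a measured level, a *Col3a1* value under 10000 CPM (the share of a library's counts, scaled to one fixed library size, here by the file total). All 9 mice of both groups carried 1 mutant and 1 wildtype copy of *Col3a1* (genotype label Het), a glycine-to-aspartate missense allele on a C57BL/6J background, and all drank hydralazine at 32 mg/kg/day from birth. HS mice also received spironolactone at 100 mg/kg/day in chow from day 21 and were harvested at day 60. The hydralazine group (treatment label Hydral) held 3 mice harvested at day 30 and 3 at day 60, and no label gives the age of a single library. A further group, HB, received bicalutamide at 50 mg/kg/day in place of spironolactone over the same days and gave 3 libraries. Each library was made from 1 descending thoracic aorta, with its adventitia stripped off according to the labels.

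Hydralazine is a vasodilator that lowers blood pressure. Spironolactone is a steroidal antagonist of the mineralocorticoid receptor that also has antiandrogen activity, and bicalutamide is a non-steroidal antiandrogen. The mineralocorticoid receptor is a nuclear receptor that binds steroid hormones, regulates transcription and is expressed in smooth muscle cells of arteries. *Col3a1* encodes type III collagen, a fibrillar collagen of the vessel wall whose synthesis is high in the growing aorta.

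Library totals of the 9 HS and hydralazine libraries ran from 5644869 to 8064586 counts. Smooth muscle markers identified the tissue, with the myosin heavy chain *Myh11* at 7168 to 8563 CPM in HS and 8701 to 9825 CPM in the *Col3a1*-low hydralazine libraries. HS replicate 3 stood apart in *Hspa1b*, an inducible chaperone (37.8, 123 and 708 CPM in HS replicates 1, 2 and 3), and in *Alb*, the liver-made plasma protein albumin (1111, 440.0 and 112 CPM). Hydralazine replicate 1 stood apart in *Fasn*, the fatty acid synthase (3074, 644 and 985 CPM in hydralazine replicates 1, 2 and 6). HB replicate 2 held heart transcripts (*Myh6*, the atrial myosin, 7.81, 403 and 41.2 CPM in HB replicates 1, 2 and 3). List medians that move with HS replicate 3 or hydralazine replicate 1 are therefore given without them too. The labels do not say which aortas were extracted together, so no within-batch value was computed.

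*Col3a1* stood at 7285, 7413 and 5173 CPM of the file total in HS replicates 1, 2 and 3. In the hydralazine group it stood at 7508, 5507 and 5704 CPM in replicates 1, 2 and 6, which lay under the threshold, and at 15190, 15432 and 14836 CPM in replicates 3, 4 and 5. The member just inside the threshold was hydralazine replicate 1 at 7508 CPM, and the library just outside was replicate 5 at 14836 CPM. The 6 hydralazine libraries formed 2 clusters of 3 with no value in between. Because *Col3a1* chose the members, its levels and every difference from the 3 *Col3a1*-low hydralazine libraries are given as descriptions, with no test.

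**Figure D1:**
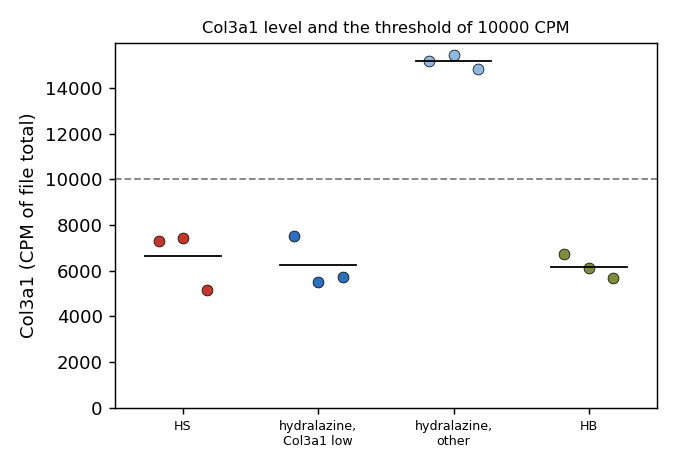
*Col3a1* in CPM of the file total (vertical axis, from 0) in HS, in the 3 *Col3a1*-low and the 3 other hydralazine libraries, and in HB. Points are libraries, black lines are means of 3, and the dashed line is the threshold of 10000 CPM, with the nearest hydralazine libraries at 7508 and 14836 CPM.

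The addition of spironolactone was tested on all labelled libraries, 3 HS against 6 hydralazine, with edgeR's quasi-likelihood test. Of 13304 genes, 0 (0%) had a Benjamini-Hochberg adjusted p of 0.05 or less, and 1805 had an unadjusted p under 0.05, 814 higher and 991 lower in HS. DESeq2's Wald test called 52 of 14115 genes, 8 higher and 44 lower. Of the 52, 5 belonged to the 18 genes of the lipogenesis list (*Fasn*, *Acly*, *Scd1*, *Elovl6*, *Agpat2*) and 4 to the 18 genes of the glycolysis list (*Pfkl*, *Aldoa*, *Gapdh*, *Eno1*), all lower in HS. The hydralazine group mixes both ages, so this test compares day-60 HS aortas with aortas of 2 ages.

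Against the 3 *Col3a1*-low hydralazine libraries, all HS libraries lay above all hydralazine libraries in 941 of 12905 genes (7.29%) and below them in 856 (6.63%). These shares are the background for the counts of gene lists below. Where only 1 member of a list is named as wholly outside, the count is near these shares and is not a result about the list. Against all 6 hydralazine libraries the shares were 3.3% above (426 genes) and 2.56% below (331 genes). Levels below are normalised CPM unless another scale is named, and log2 differences are those of the group means plus 0.5 CPM.

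The 10 genes with the smallest p in the tested comparison did not pass the adjustment in edgeR. All passed in DESeq2, and in each of the 10 all HS libraries lay outside the range of all 6 hydralazine libraries. The 10 were picked by their edgeR p in these same libraries, so the separation and the DESeq2 calls are not independent support. The first was *Ank*, a membrane transporter of pyrophosphate, at 41.3, 41.4 and 42.7 CPM in HS and 56.9 to 68.0 CPM in hydralazine (log2 fold change -0.55 ± 0.0755 (SE), edgeR adjusted p = 0.316). Its adjusted p was 0.000302 in DESeq2 and 0.04997 in edgeR's fit of the 4 VEDS groups, untreated mice included. *Folh1*, a glutamate carboxypeptidase, was higher in HS at 12.4, 14.5 and 16.0 CPM against 7.29 to 9.15 CPM (0.82 ± 0.129, adjusted p = 0.332). *Hhip*, a membrane-bound inhibitor of hedgehog ligands, stood at 92.7, 124 and 119 CPM in HS and 50.4 to 80.5 CPM in hydralazine (0.72 ± 0.137). The glycolytic enzyme *Gapdh* was lower in HS, at 340.5, 321 and 256 CPM against 433 to 586 CPM (-0.67 ± 0.127).

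The airway-type secreted protein gene *Bpifa1* was higher in HS, at 3.06 to 10.1 CPM against 0 to 1.15 CPM. Lower in HS were the calmodulin-dependent kinase subunit *Camk2b* (11.6 to 15.9 against 19.7 to 24.3 CPM) and the kinase gene *Sbk1* (8.44 to 8.91 against 13.7 to 21.5 CPM). The liver-expressed murinoglobulin *Mug2*, a protease inhibitor, stood at 1.60 to 7.24 CPM in HS and 25.5 to 98.8 CPM in hydralazine, and its pseudogene *Mug-ps1*, which may share its reads, at 0.399 to 1.81 and 4.19 to 16.8 CPM. The edgeR adjusted p of each named gene other than *Ank* was 0.332. In DESeq2 the adjusted p of *Gapdh* was 0.00041, of *Hhip* 0.00289, of *Folh1* 0.00506 and of *Camk2b* 0.0162.

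Lipogenesis makes fatty acids from acetyl-CoA. All 18 members had a lower mean in HS than in the *Col3a1*-low hydralazine libraries, with a median log2 difference of -0.71 against 0.0043 over all 12905 genes, and 6 of the 18 did not overlap between the groups (background 6.63%). Against all 6 hydralazine libraries 5 members lay wholly below (background 2.56%). In the tested comparison 0 of 18 passed in edgeR, and the median log2 fold change was -0.78. An unadjusted edgeR p under 0.05 was found for 13, all lower, against 991 lower of 13304 over all genes.

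*Fasn*, which builds palmitate from malonyl-CoA, stood at 393, 417 and 121 CPM in HS replicates 1, 2 and 3 and at 3074, 644 and 985 CPM in hydralazine replicates 1, 2 and 6, a log2 difference of -2.33. Every HS library was below every hydralazine library, including replicates 3, 4 and 5 at 1706, 2996 and 1411 CPM. *Scd1*, the stearoyl-CoA desaturase that makes monounsaturated fatty acids, stood at 982, 749 and 420.4 CPM against 5579, 1457 and 1875 CPM (-2.05). *Elovl6*, which elongates palmitate, stood at 26.7, 21.3 and 9.04 CPM against 156, 32.1 and 55.2 CPM (-2.06). Hydralazine replicate 1 was the highest library of the 6 members in all 3 genes, and HS replicate 3 the lowest.

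*Acly*, which supplies cytosolic acetyl-CoA, stood at 141, 184 and 113 CPM in HS and 716, 226 and 284 CPM in hydralazine (-1.48). *Agpat2*, an acyltransferase of glycerolipid synthesis, had a log2 difference of -1.28, and malic enzyme *Me1*, which makes NADPH, of -0.76, both without overlap. *Acaca*, the acetyl-CoA carboxylase, overlapped between the groups (256, 274 and 178 against 1099, 268 and 368 CPM), as did the transcription factor *Srebf1* (62.4, 76.0 and 40.2 against 88.1, 75.9 and 63.6 CPM) and the regulator *Thrsp* (61.1, 32.2 and 24.3 against 190.1, 47.4 and 70.7 CPM). *Acsl1* (-0.02) and *Scd2* (-0.11) differed least.

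Without hydralazine replicate 1 the median of the list was -0.18, with 6 of 18 members wholly below (background 11.9%). Without HS replicate 3 it was -0.65, with 7 wholly below (background 11.5%). The summed level of the 20 adipocyte markers overlapped, at 3090.2, 1738 and 2158 CPM in HS and 3078, 1746 and 2055 CPM in hydralazine, and 0 of the 20 lay wholly below, with a median of -0.0098 (0.46 without hydralazine replicate 1). Liver transcripts were lower in HS, as described further on, and their part in the lipogenesis difference was not tested. In bulk tissue, fewer cells of a type and less RNA per cell cannot be told apart.

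Upstream sequence of the 2 lipogenic genes with the largest differences that are in the RefSeq promoter table (GRCm38.p6) is given here to show the DNA in front of genes that were low together. The windows hold the 150 bases before the annotated start, 5′ to 3′ on the gene's strand, with CCAAT boxes on either strand in capitals. CCAAT is the binding site of NF-Y, a factor of many promoters that acts at the *Fasn* promoter together with SREBP. *Fasn* lies at chr11:120824548-120824697, minus strand, and *Elovl6* at chr3:129532236-129532385, plus strand.
Fasn: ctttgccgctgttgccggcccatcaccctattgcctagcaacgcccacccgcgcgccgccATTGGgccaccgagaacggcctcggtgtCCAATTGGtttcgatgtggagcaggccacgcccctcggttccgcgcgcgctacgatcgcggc
Elovl6: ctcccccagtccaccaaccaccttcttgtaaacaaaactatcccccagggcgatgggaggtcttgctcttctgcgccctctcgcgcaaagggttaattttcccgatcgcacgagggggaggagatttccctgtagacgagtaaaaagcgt
The *Fasn* window holds 3 CCAAT matches starting 90, 62 and 59 bases before the start, the last 2 of which overlap on opposite strands, and the *Elovl6* window holds 0. Of all 32851 promoter windows of this length, 24.5% hold a match.

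Glycolysis breaks glucose down to pyruvate. All 18 members had a lower mean in HS than in *Col3a1*-low hydralazine (median -0.29), 9 of 18 did not overlap (background 6.63%) and 6 lay below all 6 hydralazine libraries (background 2.56%). *Gapdh*, the glyceraldehyde phosphate dehydrogenase, stood at 340.5, 321 and 256 CPM in HS and 473, 433 and 448 CPM in hydralazine. *Aldoa*, the muscle aldolase, stood at 290.4, 307 and 319 CPM against 523, 379 and 425 CPM (-0.53).

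*Pfkl*, the liver-type phosphofructokinase, stood at 44.6, 39.5 and 35.8 CPM against 85.5, 48.0 and 60.0 CPM (-0.68), and *Eno1*, the ubiquitous enolase, at 186, 159.6 and 126 CPM against 335, 186 and 225 CPM (-0.66). *Gpi1* (-0.46), *Pkm* (-0.35), *Pgam1* (-0.24), *Tpi1* (-0.20) and the glucose transporter *Slc2a1* (-0.44) also lay wholly below. The insulin-responsive transporter *Slc2a4* had a log2 difference of -0.66, which rested on hydralazine replicate 1 (23.8, 19.3 and 20.9 against 56.1, 20.9 and 24.8 CPM) and was -0.098 without it. The gap was narrow for *Eno1*. Without HS replicate 3, 9 members lay wholly below (background 11.5%), and without hydralazine replicate 1, 9 (background 11.9%), with a median of -0.21. In the tested comparison 0 of 18 passed in edgeR and 4 in DESeq2, and 11 had an unadjusted p under 0.05 in edgeR, all lower in HS.

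**Figure D2:**
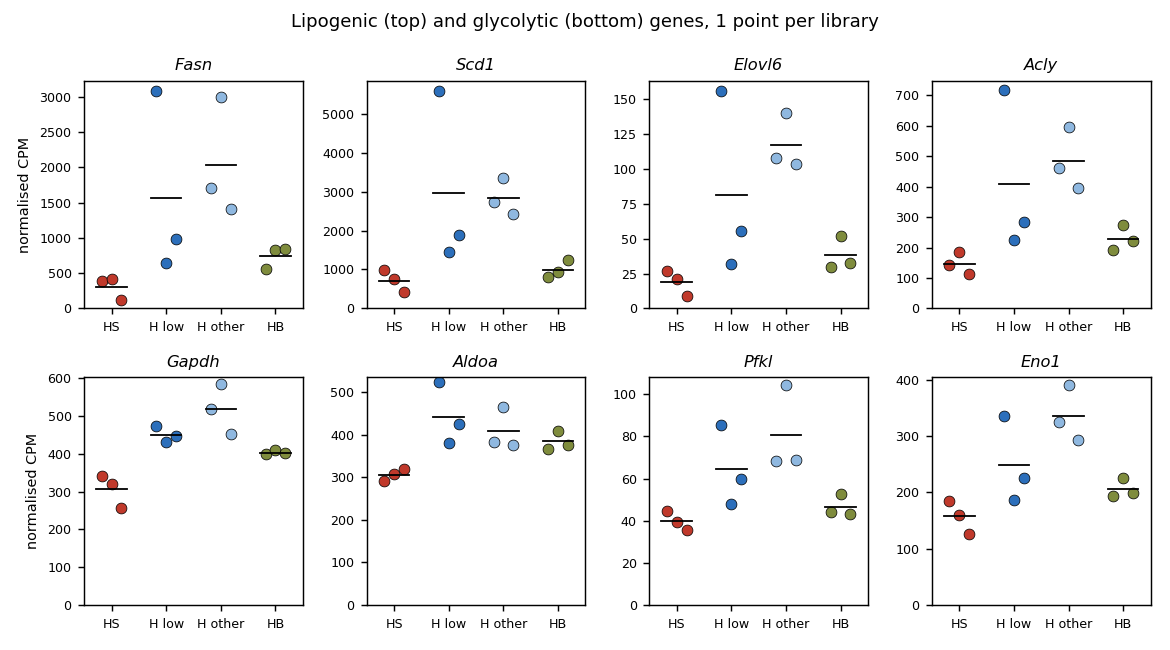
Normalised CPM (vertical axes, from 0) of 4 lipogenic and 4 glycolytic genes in HS, *Col3a1*-low hydralazine (H low), the other 3 hydralazine libraries (H other) and HB. Points are libraries and lines are means of 3; HS points lie below all 6 hydralazine points in the 8 panels, and hydralazine replicate 1 is the high H low point of *Fasn*, *Scd1*, *Elovl6* and *Acly*.

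Mitochondrial genes were compared next. Of 24 respiratory chain genes, 24 had a lower mean in HS, with a median of -0.14 and 2 wholly below (background 6.63%). These were the complex I subunits *Ndufs3* (43.3, 39.8 and 37.6 against 57.8, 44.3 and 48.2 CPM) and *Ndufb8* (67.3, 54.4 and 63.6 against 93.1, 71.9 and 69.6 CPM). Without hydralazine replicate 1 the median was -0.012. In the tested comparison with all 6 hydralazine libraries 24 of 24 were lower (median -0.33), 9 with an unadjusted p under 0.05, and 0 passed in edgeR. Fatty acid oxidation genes, which burn what lipogenesis makes, were split 7 higher and 13 lower (median -0.06, but 0.078 without HS replicate 3 and 0.11 without hydralazine replicate 1), with 0 outside the other group's range. Against all 6 hydralazine libraries 19 of 20 were lower (median -0.47), 3 with an unadjusted p under 0.05. Of 19 cholesterol synthesis and uptake genes that passed the filter, 12 were lower (median -0.11, but 0.081 without HS replicate 3 and 0.076 without hydralazine replicate 1). Wholly below were 2 (background 6.63%), the phosphomevalonate kinase *Pmvk* (15.5, 16.4 and 10.2 against 26.3, 18.1 and 17.6 CPM) and the sterol desaturase *Sc5d* (31.1, 34.0 and 25.4 against 50.0, 38.7 and 36.6 CPM).

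Transcripts best known from liver were present in every library. Of 16 hepatocyte markers, 14 had a lower mean in HS than in *Col3a1*-low hydralazine (median -1.10). Wholly below were 5 (background 6.63%), *Alb*, *Ttr*, *Serpina1c*, *Mup3* and *Trf*. *Alb* stood at 1111, 440.0 and 112 CPM in HS, at 1213, 1807 and 1447.7 CPM in *Col3a1*-low hydralazine and at 5351, 9119.5 and 6471 CPM in hydralazine replicates 3, 4 and 5. The summed level of the 16 markers was 4474, 1667 and 519.9 CPM in HS replicates 1, 2 and 3, 4134, 5318 and 4595 CPM in hydralazine replicates 1, 2 and 6 and 1378 to 1856 CPM in HB. Without HS replicate 3 the median was -0.63.

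The nuclear receptors PXR and CAR, which sense drugs and steroids in liver and gut, are known to activate cytochrome P450, glutathione transferase and carboxylesterase genes. Of 16 listed targets that passed the filter, 11 had a higher mean in HS (median 0.21), and 2 lay wholly above (background 7.29%). In the tested comparison with all 6 hydralazine libraries, 8 of 18 were higher and 10 lower (median -0.15), and 0 passed in edgeR. *Gstm3*, a glutathione transferase, stood at 92.6, 26.6 and 3.46 CPM in HS and 1.09, 2.97 and 2.05 CPM in *Col3a1*-low hydralazine, the largest log2 difference (4.03) among non-overlapping higher genes with a mean of at least 5 CPM. *Cyp2b10*, the classic CAR target, stood at 7.84, 4.83 and 10.8 CPM against 0.778, 1.74 and 0.639 CPM (2.42).

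*Cyp3a11*, the main PXR-regulated P450 of mouse liver, stood at 845, 311 and 61.4 CPM in HS and 57.3, 80.9 and 104 CPM in *Col3a1*-low hydralazine. The carboxylesterase *Ces2a* stood at 74.6, 30.1 and 5.19 CPM against 7.78, 10.5 and 11.0 CPM. Both overlapped between the groups in HS replicate 3, the library with the least *Alb*. Without it 6 of the 16 lay wholly above (background 12.3%) and the median was 0.55. P450 and glutathione transferase genes belong to families with near-identical members, so reads may be split among them and single members are uncertain.

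Each liver-type gene was also expressed per 1000 *Alb* reads of the same library, a scale chosen after the data were seen. On it, HS lay above all 6 hydralazine libraries in 16 of the 19 targets of PXR and CAR and in 5 of the 15 hepatocyte markers other than *Alb*, and below in 0 of either. Over all 12904 other genes 64.1% lay above and 0% below, because *Alb*, the divisor, was itself lower in HS, so these counts are not a result about either list. *Cyp3a11* stood at 761, 706 and 549 in HS replicates 1, 2 and 3 and at 47.2, 44.8 and 72.1 in hydralazine replicates 1, 2 and 6. The other 3 hydralazine libraries lay at 48.1 to 53.9, so that HS was above all 6, while HB stood at 726 to 898. *Gstm3* stood at 83.3, 60.4 and 30.9 in HS, 0.898 to 4.38 in the 6 hydralazine libraries and 45.3 to 127 in HB. *Ces2a* stood at 67.2, 68.4 and 46.3 in HS and 3.23 to 7.60 in hydralazine.

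The same order held for *Cyp2c29* (152 to 178 in HS, 24.8 to 45.4 in hydralazine, 169 to 239 in HB) and *Cyp2c55* (8.31 to 14.9, 0 to 0.353 and 13.8 to 20.8). The 5 hepatocyte markers above all 6 were *Apob*, *Serpina1a*, *Serpina1c*, *Hp* and *Cyp2e1*, of which *Cyp2e1* stood at 260.1, 217 and 852 in HS and 39.3 to 103 in hydralazine, and *Apob* at 619, 493 and 482 and 226 to 412. The other 10 overlapped. Of these, *Apoa1*, the main protein of high-density lipoprotein, stood at 107 to 146 in HS and 105 to 115 in *Col3a1*-low hydralazine, *Ttr*, the thyroxine carrier, at 54.6 to 97.4 and 69.9 to 85.2, and fibrinogen *Fgb* at 62.9 to 109 and 78.6 to 103. Any transcript with a source outside liver rises on this scale as *Alb* falls, and *Gstm1* (215, 549 and 1742 in HS) and *Cyp2b10* (7.06, 11.0 and 96.2 in HS) were highest in HS replicate 3, where *Alb* was lowest. How much of each gene came from liver was not tested.

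In an alternative edgeR fit on all labelled libraries with 1 surrogate variable, 6 genes were called, 5 higher and 1 lower in HS. The 5 were *Gstm3* (log2 fold change 4.68 ± 0.287, adjusted p = 4.38e-05), *Cyp2c55* (5.50 ± 0.448, adjusted p = 0.000464), *Cyp3a11* (2.75 ± 0.262, adjusted p = 0.00162), *Cyp3a59* (3.53 ± 0.420, adjusted p = 0.0112) and *Ces2a* (2.50 ± 0.333, adjusted p = 0.0257). The lower gene was *Mug2* (-2.26 ± 0.305, adjusted p = 0.0257). All 5 higher genes encode enzymes of drug metabolism, and *Cyp2c55* and *Cyp3a59* were named after their values were seen. None of them passed in the fit without the surrogate variable, where *Gstm3* had 1.68 ± 0.971 (adjusted p = 0.456) and *Cyp3a11* 0.88 ± 0.774 (adjusted p = 0.630).

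**Figure D3:**
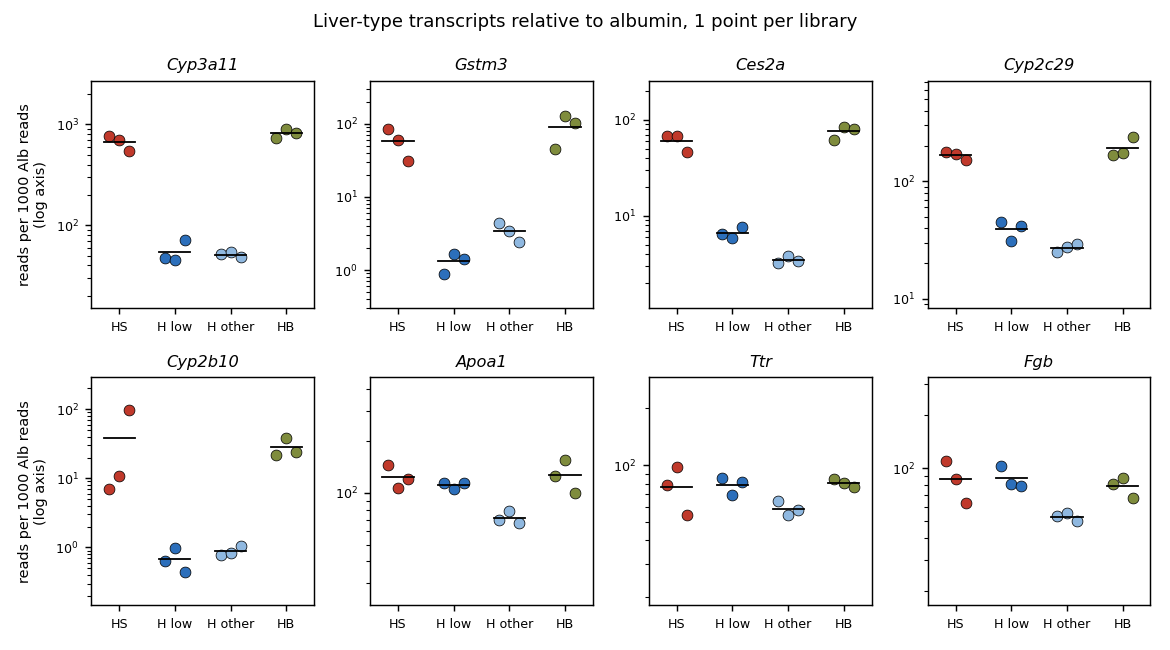
Reads per 1000 *Alb* reads (log axes) for 5 targets of PXR and CAR and 3 plasma protein genes, in HS, *Col3a1*-low hydralazine (H low), the other 3 hydralazine libraries (H other) and HB. Points are libraries and lines are means of 3; the 5 targets are higher in HS and HB than in all 6 hydralazine libraries, whereas HS and H low overlap for *Apoa1*, *Ttr* and *Fgb*, 3 of the 10 hepatocyte markers that overlapped with the 6 hydralazine libraries. On this scale 64.1% of all genes lie above all 6.

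Upstream windows of *Cyp3a11* (chr5:145879855-145880004, minus strand) and *Gstm3* (chr3:107969175-107969324, minus strand), from the same table and of the same length, show the sequence in front of these targets. Capitals mark TGAACT, the half-site that PXR and related receptors bind, searched on both strands.
Cyp3a11: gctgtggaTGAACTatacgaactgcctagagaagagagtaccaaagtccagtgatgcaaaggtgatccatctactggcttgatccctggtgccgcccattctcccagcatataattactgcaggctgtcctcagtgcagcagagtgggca
Gstm3: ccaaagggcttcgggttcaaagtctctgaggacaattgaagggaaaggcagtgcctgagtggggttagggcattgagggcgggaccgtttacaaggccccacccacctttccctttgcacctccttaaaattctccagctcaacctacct
The *Cyp3a11* window holds 1 match, 142 bases before the start, and the *Gstm3* window 0. A match stood in 6.73% of all 32851 windows.

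The major urinary proteins are pheromone carriers made by the liver of adult male mice under androgen and growth hormone control, and their genes are so alike that reads cannot be assigned with certainty. *Mup7* stood at 8.14, 4.19 and 0 CPM in HS, 109, 116 and 59.8 CPM in *Col3a1*-low hydralazine, 0 in hydralazine replicates 3, 4 and 5 and 0, 4.32 and 0.417 CPM in HB. Per 1000 *Alb* reads it stood at 7.33, 9.52 and 0 in HS against 89.4, 64.0 and 41.3 in *Col3a1*-low hydralazine. *Mup3* (98.3, 115 and 59.4 against 169, 138 and 128 per 1000 *Alb* reads) and *Mup11* (5.57, 6.59 and 1.19 against 15.7, 10.1 and 13.0) did not overlap either. Hydralazine replicates 3, 4 and 5 lay below HS in both (*Mup3* 16.4, 26.3 and 16.9, *Mup11* 0.032, 0.0655 and 0).

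*Serpina1e*, a member of the alpha-1 antitrypsin family, stood at 110.4, 38.0 and 5.72 CPM in HS and 232, 353 and 271 CPM in *Col3a1*-low hydralazine, and at 99.4, 86.4 and 51.1 against 192, 196 and 188 per 1000 *Alb* reads. Hydralazine replicates 3, 4 and 5 lay below HS on the latter scale, at 5.91, 22.9 and 9.15. *Slco1a1*, an organic anion transporter of male liver, had a log2 difference of -1.76 in CPM, but overlapped per 1000 *Alb* reads (4.75 to 11.7 against 10.4 to 15.8). *Sult2a7*, of a steroid sulfotransferase family that is higher in female liver, had 39, 16 and 4 reads in HS, 0 in each *Col3a1*-low hydralazine library, 0 to 1 in the other 3 and 21 to 25 in HB, and was named after its values were seen. It was 1 of 2 genes that edgeR called for HB against the 6 hydralazine libraries, with *Mup15* (2 of 13266 genes, 0.0151%).

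Smooth muscle contractile genes were slightly lower in HS than in *Col3a1*-low hydralazine. Of 20, 16 had a lower mean, 8 lay wholly below (background 6.63%), 0 lay wholly above and the median was -0.19. *Mylk*, the myosin light chain kinase, stood at 1203, 1230.4 and 1289 CPM in HS and 1426, 1571 and 1655 CPM in hydralazine (-0.32). *Myh11* stood at 7168, 8563 and 7949.7 CPM against 8701, 9580.5 and 9825 CPM (-0.25), and *Des*, the intermediate filament desmin, at 31.2, 35.0 and 45.3 CPM against 52.8, 55.5 and 48.8 CPM (-0.49). The groups did not overlap in these 3 genes, with the narrowest gap in *Myh11*.

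*Tpm2*, a tropomyosin, stood at 1026, 1199 and 1254 CPM against 1308, 1398 and 1479 CPM, and the enteric actin *Actg2* at 125, 131 and 133 CPM against 144, 147 and 204 CPM. *Smtn* (-0.24), *Myl9* (-0.20) and *Tpm1* (-0.13) completed the 8. The most abundant member, *Acta2*, overlapped (9641, 9111 and 7463 against 9981, 9438 and 10889 CPM), and the coactivator *Myocd* was higher on average (0.35), with its highest level in HS replicate 3 (123, 169.9 and 312 against 136, 133 and 207 CPM). Without HS replicate 3, 12 of 20 lay wholly below (background 11.5%) and the median was -0.19. In the tested comparison with all 6 hydralazine libraries the direction was not kept, with 11 of 20 higher, a median log2 fold change of 0.089 and 0 passing. Hydralazine replicates 3, 4 and 5 had lower levels (*Myh11* 6424, 5990.3 and 7192 CPM). The summed level of the 20 was 32557 to 34688 CPM in HS, 36546 to 40665 CPM in *Col3a1*-low hydralazine and 25614 to 29892 CPM in replicates 3, 4 and 5. Contractile levels varied with *Col3a1* in the hydralazine group, so this list is not independent of the selection.

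Matrix lists had medians near that of all genes, at 0.13 for the basement membrane, 0.055 for fibrillar collagens, 0.061 for elastic fibres, 0.14 for proteoglycans and -0.025 for proteases. The basement membrane is the sheet of laminin and type IV collagen around each smooth muscle cell. Of its 17 genes, 9 had a higher and 8 a lower mean in HS, 5 lay wholly above (background 7.29%) and 1 wholly below. The type IV collagen chains *Col4a3* (102, 103 and 131 against 83.9, 86.9 and 92.6 CPM), *Col4a4* (84.7, 81.5 and 92.9 against 64.1, 72.0 and 70.3 CPM) and *Col4a5* (1176, 1199 and 1296 against 1098, 1039 and 1117 CPM) were among the 5. The others were the laminin chain *Lama2* (405, 435 and 499 against 377, 376 and 379 CPM) and nidogen *Nid1* (289, 258 and 245 against 243, 188 and 187 CPM), which joins laminin to type IV collagen. *Col18a1*, the source of endostatin, lay wholly below (1312, 1186 and 1287 against 1446, 1554 and 1542 CPM).

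Among 21 genes of fibrillar collagens and their processing, 3 lay wholly above (background 7.29%). Wholly below was 1 (background 6.63%), the lysyl hydroxylase *Plod3*. *Col1a1* stood at 2217, 1492 and 1542 CPM against 1427, 1219 and 917 CPM (0.56), *Col5a1* at 717, 703 and 719 CPM against 674, 632 and 646 CPM (0.13) and the procollagen peptidase *Adamts2* at 342, 354 and 355 CPM against 306, 277 and 277 CPM (0.29). The hydralazine libraries were selected on low *Col3a1*, so genes that vary with it are not independent of the selection. Against all 6 hydralazine libraries the direction was reversed for *Col1a1* (-0.25), *Adamts2* (-0.28) and *Nid1* (-0.17). In the tested comparison 19 of 22 fibrillar collagen genes were lower (median -0.23), as were 12 of 17 basement membrane genes (-0.17). Elastic fibre genes were split 8 higher and 10 lower (-0.016), while 15 of 18 proteoglycan genes were higher (0.20). In edgeR 0 of them passed. In the fibrillar, basement membrane and elastic fibre lists 0 genes lay above all 6 hydralazine libraries.

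Of 17 elastic fibre genes, 2 lay wholly above (background 7.29%) and 1 wholly below (background 6.63%). *Mfap5*, a microfibril glycoprotein (376, 399.8 and 477 against 337, 258 and 254 CPM), and *Fbln2*, fibulin 2 (357, 348 and 339 against 321, 266 and 265 CPM), lay above, and *Emilin1* (144, 157 and 126 against 181, 183 and 183 CPM) below. *Eln*, the elastin gene, overlapped (5223, 5598 and 4316 against 6406, 4009.7 and 4386 CPM). *Emilin1* also lay below hydralazine replicates 3, 4 and 5 (167, 160.4 and 169 CPM). Among proteoglycan and matricellular genes, *Thbs1*, a thrombospondin that binds cells and growth factors, stood at 163, 203 and 447 CPM against 143, 121 and 140.3 CPM and lay above all 6 hydralazine libraries, and its log2 difference was 1.01, or 0.44 without HS replicate 3. *Aspn*, asporin, stood at 109, 121 and 139 CPM against 104, 76.0 and 94.4 CPM.

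Matrix proteases and inhibitors that did not overlap were lower. The membrane protease *Mmp17* (82.9, 89.7 and 73.0 against 106, 100.3 and 114 CPM), the cathepsins *Ctsb* (609, 706 and 657 against 782, 725 and 733 CPM) and *Ctss* (17.9, 15.0 and 19.0 against 25.8, 19.4 and 20.1 CPM) and the inhibitor *Timp1* (13.0, 17.6 and 15.2 against 17.7, 21.1 and 20.2 CPM) were the 4 of 17 wholly below (background 6.63%), with 0 above. *Adamts1* was highest in HS replicate 3 (295, 269 and 727 against 229, 266 and 369 CPM). Of 15 integrins and collagen receptors, 1 lay wholly above (background 7.29%). This was *Itga4*, the alpha 4 subunit (33.0, 36.2 and 39.9 against 26.0, 24.1 and 25.3 CPM).

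**Figure D4:**
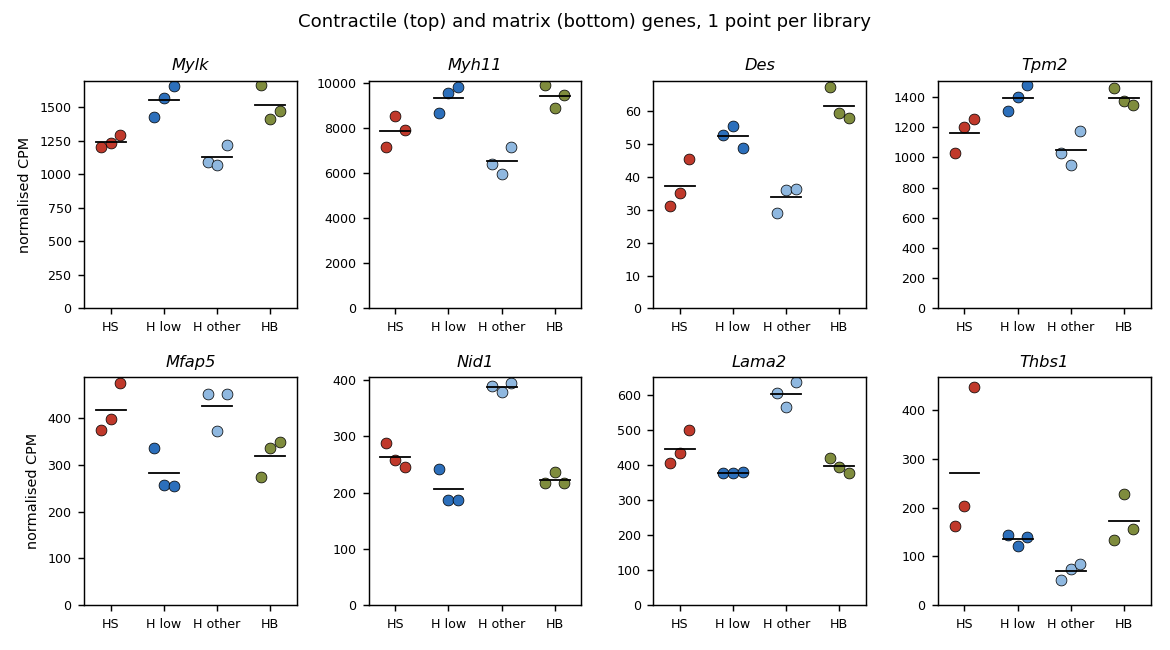
Normalised CPM (vertical axes, from 0) of 4 contractile and 4 matrix genes in HS, *Col3a1*-low hydralazine (H low), the other 3 hydralazine libraries (H other) and HB. Points are libraries and lines are means of 3. The contractile genes are lower and the matrix genes higher in HS than in H low with no overlap in each of the 8 panels. Only genes without overlap were drawn, and matrix genes only from those above. The matrix genes *Emilin1*, *Col18a1* and *Plod3* lay wholly below, and the contractile *Acta2* overlapped. *Nid1* changed direction against H low and H other together, and *Thbs1* was highest in HS replicate 3.

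Steroid receptors were compared per length, in TPM, the deposited transcript abundance scaled for gene length and library (mean ± SD, n = 3 per group). The glucocorticoid receptor *Nr3c1* was the most abundant of the 4 receptors given, at 31.3 ± 5.68 TPM in HS and 32.8 ± 2.00 TPM in *Col3a1*-low hydralazine. The estrogen receptor *Esr1* followed (5.44 ± 0.996 and 5.52 ± 0.275 TPM), then the mineralocorticoid receptor *Nr3c2* (3.87 ± 0.634 and 5.10 ± 0.195 TPM) and the progesterone receptor *Pgr* (2.49 ± 0.531 and 2.61 ± 0.431 TPM).

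In CPM, *Nr3c2* stood at 30.6, 40.3 and 45.5 in HS and 43.8, 47.3 and 45.9 in *Col3a1*-low hydralazine, and the groups overlapped. In the tested comparison its log2 fold change was 0.10 ± 0.235 (edgeR adjusted p = 0.872). Of the 12 members of the receptor and enzyme list that passed the filter, 1 lay wholly above (background 7.29%) and 1 wholly below (background 6.63%). The higher was the coactivator *Ncoa1* (58.7, 61.4 and 66.5 against 54.0, 53.7 and 54.7 CPM). The lower was *Srd5a1*, the 5-alpha reductase that makes dihydrotestosterone (4.67, 3.38 and 3.32 against 7.16, 6.63 and 6.39 CPM). *Hsd11b1*, which regenerates active glucocorticoid, overlapped by 1 library (26.5, 15.0 and 13.8 against 23.2, 29.1 and 32.2 CPM). *Nr3c1* (0.08), *Esr1* (0.14), *Pgr* (0.11), *Srd5a3* (-0.29), the chaperone *Fkbp4* (-0.04), *Ncoa2* (0.12) and *Ncoa3* (-0.05) overlapped, with the log2 differences given. *Hsd11b2*, the enzyme that shields the mineralocorticoid receptor from glucocorticoid, was at 0 to 0.452 CPM in the 6 libraries and did not pass the filter.

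Of 19 genes known to respond to steroid hormones, 16 had a higher mean in HS with a median of 0.25, and 0 lay outside the range of the other group. Without HS replicate 3 the median was -0.21, and 3 of 19 lay wholly below (background 11.5%). *Fkbp5*, a chaperone induced by glucocorticoid, stood at 11.8, 13.4 and 60.4 CPM in HS and 9.50, 6.80 and 21.2 CPM in hydralazine. *Tsc22d3*, another induced gene, stood at 65.9, 58.3 and 201 against 62.7, 69.1 and 95.1 CPM, and *Sgk1*, a kinase downstream of the mineralocorticoid receptor, at 89.3, 70.4 and 158 against 74.1, 92.3 and 129.7 CPM. In these 3 genes HS replicates 1 and 2 lay below the highest *Col3a1*-low hydralazine library and HS replicate 3 above it.

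Of 16 heat shock genes, 14 had a higher mean in HS (median 0.29, 0.06 without HS replicate 3), with the near-identical *Hspa1a* (57.6, 146 and 705 CPM) and *Hspa1b* highest in HS replicate 3. *Hsph1*, a chaperone of the Hsp110 family, was higher without overlap (102, 105 and 167 against 84.5, 74.0 and 95.1 CPM), and the constitutive *Hsp90ab1* lower without overlap. Of 20 immediate early genes, 19 had a higher mean (median 0.27, 0.11 without HS replicate 3 and 0.19 without hydralazine replicate 1). *Nr4a3*, an orphan nuclear receptor, was the 1 wholly above (background 7.29%), at 7.99, 8.86 and 18.3 against 6.38, 7.85 and 6.78 CPM. The clock output gene *Dbp* stood at 2.41, 3.22 and 26.6 CPM in HS and 4.52, 23.9 and 22.5 CPM in hydralazine, so that HS replicate 3 was the high library in HS and hydralazine replicate 1 the low one in its group.

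Signalling lists differed little. Of 20 TGF-beta signalling genes, 15 had a higher mean in HS with a median of 0.063 (-0.01 without HS replicate 3) and 0 outside the other range, among them the ligand *Tgfb2* (64.7, 95.8 and 99.8 against 66.2, 59.7 and 71.2 CPM). Of 20 genes of phospholipase C, protein kinase C and ERK signalling, 2 lay wholly below (background 6.63%), *Plcb3* (64.2, 63.3 and 56.8 against 69.0, 83.5 and 70.5 CPM) and *Map2k2* (40.1, 41.7 and 41.5 against 43.9, 45.0 and 48.3 CPM), and the median was -0.028. Of 21 vasoactive and ion channel genes, 1 lay wholly below (background 6.63%). This was *Agt*, angiotensinogen, which is made mainly by liver (12.7, 4.03 and 1.46 against 12.8, 16.9 and 12.9 CPM).

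The non-overlapping higher genes with the largest differences included 3 mast cell proteases. *Mcpt4* stood at 14.2, 9.34 and 8.64 CPM in HS and 6.54, 4.88 and 2.81 CPM in *Col3a1*-low hydralazine, the chymase *Cma1* at 9.65, 7.25 and 5.98 against 3.89, 4.19 and 2.30 CPM and the carboxypeptidase *Cpa3* at 13.0, 7.89 and 6.51 against 5.45, 4.71 and 2.56 CPM. *Mcpt4* also lay above hydralazine replicates 3, 4 and 5 (7.18, 6.57 and 5.25 CPM), while *Cma1* and *Cpa3* overlapped with them. The others were *Gdf6*, a ligand of the BMP family (8.14, 7.25 and 8.38 against 2.80, 1.05 and 2.94 CPM), *Pappa*, a protease that frees insulin-like growth factor (20.7, 10.6 and 17.3 against 7.63, 6.63 and 7.80 CPM), the potassium-dependent sodium and calcium exchanger *Slc24a4* (9.95, 5.96 and 17.0 against 4.20, 4.01 and 4.35 CPM), the mesothelial mucin *Muc16* (11.2, 8.05 and 5.45 against 4.52, 2.09 and 2.17 CPM) and *Entpd4* (25.0, 17.7 and 29.4 against 8.56, 0 and 14.1 CPM). *Entpd4* is listed at 0 in some libraries and has a near-identical copy, so its value is uncertain. Among the largest lower differences, the liver-expressed asparaginase *Aspg* (6.33, 1.93 and 2.26 against 20.4, 7.85 and 9.46 CPM) stood beside the lipogenic, *Mup*, *Mug2*, *Serpina1e* and *Slco1a1* genes above.

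Markers of other cells gave the makeup of the samples. Of 14 adventitial fibroblast markers, 11 had a higher mean in HS and 3 lay wholly above (background 7.29%), *Pi16* (385, 397 and 366 against 366, 328 and 336 CPM), *Serpinf1* (301, 326 and 283 against 282, 278 and 262 CPM) and *Abca8a* (348, 351 and 387 against 303, 308 and 307 CPM). Their summed level was 5129.9, 5259.7 and 5241 CPM in HS and 4771, 4792 and 4943 CPM in hydralazine, so that HS lay above by a narrow gap, and its part in the matrix differences was not tested. Of 14 endothelial markers, 9 had a higher and 5 a lower mean in HS (median 0.071). Wholly below were 2 of them (background 6.63%), *Erg* and *Cldn5*, and the summed level overlapped (1611 to 2055 against 1569 to 1724 CPM). Of 15 macrophage markers 0 lay outside the other range (625 to 752 against 621 to 814 CPM). Summed cardiomyocyte markers overlapped (157 to 263 against 196 to 257 CPM), of which *Ryr2* made 141 to 253 and 184 to 244 CPM, and *Myh6* was at 12.3 CPM or less. Of the 5 cardiomyocyte markers that passed the filter, 4 had a lower mean in HS (median -0.42). The 10 listed lymphocyte markers summed to 1.13 to 1.36 CPM in HS and 1.56 to 2.79 CPM in hydralazine and none passed the filter. Skeletal muscle (3.38 to 7.58 against 5.45 to 9.08 CPM), Schwann and neural (22.4 to 29.9 against 25.6 to 29.3 CPM) and erythroid sums (304 to 873 against 342 to 576 CPM) overlapped.

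Of the remaining lists, the pseudokinase *Trib3* was the 1 gene wholly above of the unfolded protein and amino acid response (background 7.29%). It stood at 4.07, 4.83 and 4.12 against 3.74, 2.79 and 2.94 CPM. Lists of the cell cycle (median -0.089), the unfolded protein and amino acid response (-0.071), the circadian clock (0.012) and integrins (0.006) are given by their medians against *Col3a1*-low hydralazine. The clock median was -0.34 without HS replicate 3, the unfolded protein median 0.10 and the cell cycle median 0.064. Against all 6 hydralazine libraries 17 of 19 cell cycle genes were lower (median -0.81), 6 with an unadjusted p under 0.05, and 0 passed in edgeR. Thymidylate synthase *Tyms*, which makes thymidine for DNA, was the 1 cell cycle gene wholly below (background 6.63%), at 5.73, 4.03 and 4.79 against 8.56, 7.85 and 7.93 CPM.

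**Figure D5:**
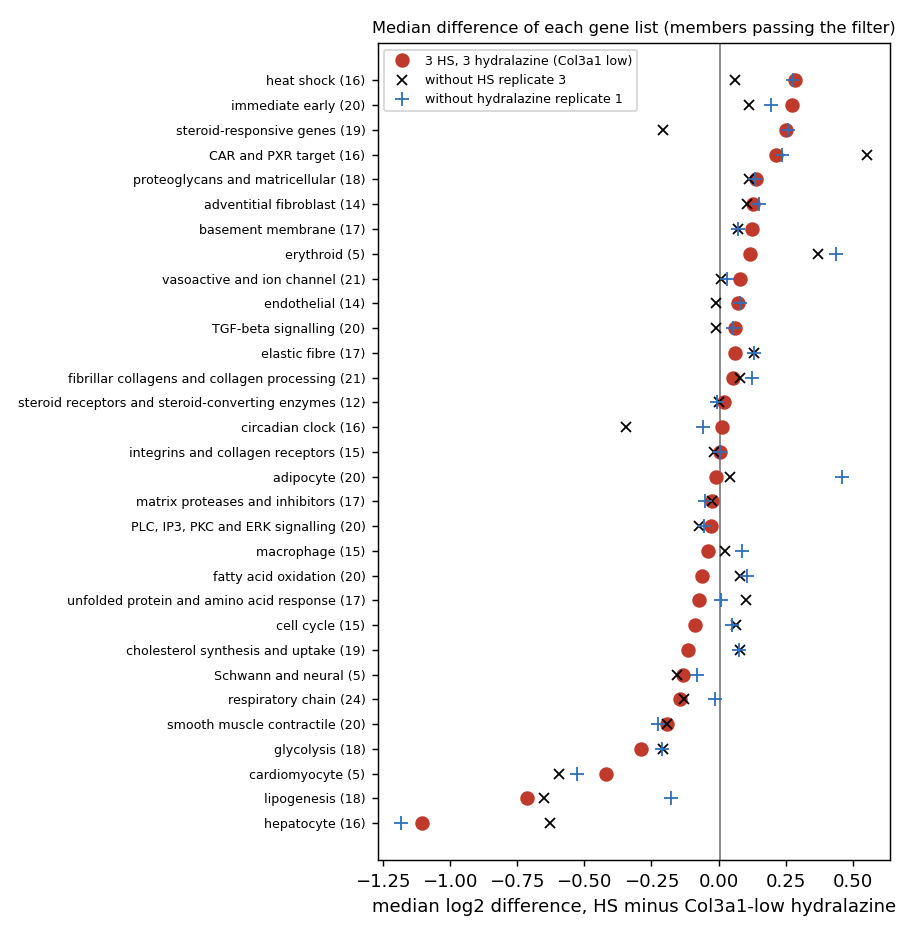
Median log2 difference between HS and *Col3a1*-low hydralazine (horizontal axis) for the lists with at least 5 members passing the filter (number in brackets), with the median without HS replicate 3 (crosses) and without hydralazine replicate 1 (plus signs). The vertical line is the median of all genes, 0.0043. The hepatocyte (-1.10), lipogenesis (-0.71) and glycolysis (-0.29) lists lie to the left of the all-gene median in the 3 settings. Other lists do so too, among them the cardiomyocyte (-0.42) and smooth muscle contractile (-0.19) lists. The steroid-responsive list moves from 0.25 to -0.21 without HS replicate 3.

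HS was compared with HB to ask whether the 2 combinations differ. None of 12800 genes passed edgeR's test (0, or 0%). Before adjustment, 855 had a p under 0.05. By DESeq2's Wald test 35 of 7499 genes passed, of which 10 were higher and 25 lower in HS. Contractile genes were lower in HS than in HB in 19 of 20 (median log2 fold change -0.19), 8 with an unadjusted p under 0.05. In edgeR 0 of the 20 passed, and in DESeq2 3 did, *Actg2* (adjusted p = 0.000195), *Des* (adjusted p = 0.0228) and *Smtn* (adjusted p = 0.00909), all lower in HS. *Actg2* stood at 125, 131 and 133 CPM in HS and 204, 199 and 186 CPM in HB (log2 fold change -0.60 ± 0.0817, edgeR adjusted p = 0.404), and *Des* at 31.2, 35.0 and 45.3 CPM against 67.2, 59.5 and 57.8 CPM (-0.72 ± 0.145, adjusted p = 0.526). Neither gene overlapped.

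Lipogenesis genes were lower in HS than in HB in 15 of 18 (median -0.28), with *Fasn* at 393, 417 and 121 against 563, 834 and 842 CPM (-1.26 ± 0.411, adjusted p = 0.679), and 0 passed in edgeR or DESeq2. Targets of PXR and CAR were split in direction (11 of 19 higher in HS, median 0.012), with *Cyp3a11* at 845, 311 and 61.4 CPM in HS and 402, 366 and 351 CPM in HB (0.13 ± 0.703, adjusted p = 0.983). *Ank* was lower in HS (41.3, 41.4 and 42.7 against 69.9, 58.7 and 67.3 CPM, -0.64 ± 0.0992, adjusted p = 0.526) and passed in DESeq2 (adjusted p = 0.00927) and in edgeR's fit of the 4 VEDS groups (adjusted p = 0.0301). A test that was not passed does not show that the drugs act alike. Against the same 6 hydralazine libraries, which both comparisons share, *Fasn* had a log2 fold change of -2.54 ± 0.590 in HS (adjusted p = 0.332) and -1.28 ± 0.462 in HB (adjusted p = 0.224), and *Cyp3a11* 0.88 ± 0.774 and 0.75 ± 0.568 (adjusted p = 0.573 in HB).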

How the data were processed

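The authors made total RNA libraries with a stranded kit, sequenced them, converted reads with CASAVA 1.8.4 and quantified genes on the mm39 build by RSEM with STAR. The deposited files hold an RSEM expected count and a TPM value per gene and library, deposited by the authors. The annotation release is not given in the sources used here. Expected counts were rounded to whole numbers, and 97.6% were whole as deposited, with totals of 5644869 to 8064586 in the 9 HS and hydralazine libraries.

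The 6 member libraries, the 33 gene lists and the tests were chosen with earlier results of these data known. Groups came from the labels, except that *Col3a1* under 10000 CPM split the hydralazine group, so that comparison was not tested. Levels are CPM scaled by TMM over 30 libraries, with a pseudocount of 0.5. Tests used edgeR 4.0.16 (quasi-likelihood, filterByExpr, Benjamini-Hochberg at 0.05) in R 4.3.3, with DESeq2 1.42.0 and sva 3.50.0 as alternatives, and were checked on simulated data. Named genes were the 10 with the smallest p in the tested comparison, the 10 higher and 10 lower non-overlapping genes with the largest difference whose mean reached 5 CPM, up to 4 members per list by size of difference, and all steroid receptor list members. Others, including further non-overlapping list members and *Sult2a7*, were named after their values were seen. A few genes that this rule names are not reported here. The labels give all libraries 1 batch and no extraction group, and p-values measure the spread between these aortas. Promoter sequences came from RefSeq on GRCm38.p6, an older build than that of the files, and 12 of 13 genes looked up were matched.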

Additional observations from a re-analysis of the deposited data

Results flagged for a closer look

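In 156 genes described above, 1 library was sought that lay far from the other 5 hydralazine libraries, and 10 genes had one. Chance gives such a library in about 1 in 20 groups. In hydralazine replicate 6 they were *Ccn1* (242.8 CPM), *Hspa1b* (170.6 CPM), *Hspa1a* (179.7 CPM), *Ier3* (15.73 CPM) and *Atf3* (65.6 CPM), all genes of the stress and immediate early response and each the highest of the 6. Hydralazine replicate 1 was highest in *Npr3* (56.52 CPM), the natriuretic peptide clearance receptor, and in *Cfd* (296.3 CPM), adipsin. Replicate 4 was highest in *Orm1* (67.3 CPM), a liver acute phase protein, replicate 2 in *Dusp6* (42.73 CPM), a phosphatase of ERK, and replicate 5 in *Ncoa1* (68.59 CPM). Replicates 6, 1 and 2 belong to the *Col3a1*-low libraries, so the values of these genes in that group rest partly on 1 library.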

How the results depend on the processing

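No paired analysis was possible because the labels do not say which replicates were extracted together. For HS against all hydralazine libraries, the count of called genes was 52 with DESeq2, 1 in a fit of the 4 VEDS groups and 6 with 1 surrogate variable, and 0 without each replicate in turn. For HS against HB it was 35 with DESeq2, 1 in the fit of the 4 groups and 0 to 2 without each replicate, the 2 being without HS replicate 1. For HB against hydralazine it was 574 with DESeq2, 0 in the fit of the 4 groups and 1 to 56 without each replicate (56 without hydralazine replicate 4, 36 without replicate 6, and 1 without HB replicate 1 or 2). The alternatives for HB against hydralazine, and the list values without HS replicate 3 or hydralazine replicate 1, were chosen after seeing the data. The causes were not tested. Against the *Col3a1*-low libraries, genes wholly above numbered 426 and wholly below 331 with all 6 hydralazine libraries, and 1398 to 1917 and 1287 to 1966 without each replicate, where fewer libraries make separation easier. With plain CPM the share above among non-overlapping genes was 44.2% in place of 52.4%, with 775 above and 980 below. Among named genes that had not overlapped, the direction was reversed with all 6 hydralazine libraries for *Col1a1* (-0.25), *Adamts2* (-0.28), *Nid1* (-0.17) and *Trib3* (-0.23). Changes of direction in overlapping genes were not counted. List medians changed sign too, as for the contractile and fibrillar collagen lists. Of the other values of single named genes against the *Col3a1*-low libraries, pooled over all settings, 1404 moved by less than the spread between replicates and 53 by more. Of the 53, 36 fell in the setting with all 6 hydralazine libraries, where 108 moved by less. Depth limits genes near 1 CPM, which rest on few reads in libraries of this size.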
